A study of Mus musculus with 30 samples.

Results

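The clustered protocadherin genes are the 57 protein-coding genes on mouse chromosome 18 whose symbol is Pcdha, Pcdhac, Pcdhb, Pcdhga, Pcdhgb or Pcdhgc followed by a number. They were picked out by their symbols from 21887 protein-coding genes of the RefSeq table. The alpha cluster held 14 members, the beta cluster 22 and the gamma cluster 21. Chromatin immunoprecipitation followed by sequencing had been done on NOS1+ N1E115 cells, a mouse neuroblastoma line labelled as neuroblast, that were grown for 3 days in 4% O2 or in 20% O2. The antibodies were against CTCF, which binds DNA at insulators and loop anchors, RAD21, part of the cohesin ring, H3K9ac, the acetylated lysine 9 of histone H3, and 3 forms of RNA polymerase II. POLR2 is the enzyme in any state, POLR2S5 carries phosphate on serine 5 of its tail repeats, and POLR2S2 on serine 2. Each antibody had 2 libraries at each O2 level, and 6 input samples were not analysed here. The only condition that differed between the groups was the O2 level, and all libraries came from the same line, so that nothing here compares N1E115 with another cell type.

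Clustered protocadherins are cell-surface adhesion proteins that give single neurons an identity and let sister branches avoid each other. In the alpha and gamma clusters each variable exon has its own promoter and is spliced to constant exons shared by the whole cluster, while each beta gene is a single exon. Neurons switch on a small and partly random choice of these promoters. Most of the promoters carry a conserved element that binds CTCF, and CTCF with cohesin loops a chosen promoter to distant enhancers. The C-type genes (Pcdhac1, Pcdhac2, Pcdhgc3, Pcdhgc4 and Pcdhgc5) stand at the ends of the alpha and gamma clusters and follow their own rules. Pcdhac2, Pcdhb1, Pcdhgc4 and Pcdhgc5 are known to lack the conserved element. Silent members are held by DNA methylation and by the factors Setdb1 and Smchd1.

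In mm10 coordinates the alpha cluster ran from 36930285 to 37188897 of chromosome 18, the beta cluster from 37264998 to 37521419 and the gamma cluster from 37661775 to 37841873. The 14 alpha members ended within 1240 bp of each other and the 21 gamma members within 10 bp, so each shared end was counted once. A call at a start means that a peak or island of the deposited list of a library overlapped the stretch from 1 kb before to 1 kb after the annotated start of the gene. Replicates 1 and 2 were sequenced on different flow cells, and are called rounds 1 and 2. Each library pools many cells, so that a mark in a few cells and a weak mark in every cell cannot be told apart. The variable exons resemble each other, and reads that fit several of them could be lost or shared between members.

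The libraries differed in ways that touch the members. CTCF lists held 124797 and 126873 peaks in round 1 against 81759 and 73200 in round 2. Among the polymerase lists, the library of 20% O2 replicate 1 held the fewest island reads of its form in all 3 cases, with POLR2 islands at the starts of 36.0% of all genes, where the other libraries had them at 51.2% to 54.5%. Most markers of the labelled cell type were in place: H3K9ac was called in all 4 libraries at 12 of 14 neuroblast and sympathetic genes. The share over all protein-coding genes of known direction, read at 1 start, was 49.9%. It is not matched to the marker counts, since 3 of the 14 had no known direction and were read at either end. The exceptions among the 14 were Gata3 and Nos1, with no H3K9ac call in any library, and the line is labelled NOS1+. Nos1 had no POLR2 or POLR2S5 call either, but had POLR2S2 in both 4% O2 libraries and in 20% O2 replicate 2. H3K9ac was called in all 4 libraries at 1 of 4 astrocyte, 1 of 4 oligodendrocyte and Schwann cell and 0 of 4 endothelial markers. The count was 0 of 4 for macrophage and microglia and 0 of 4 for fibroblast markers. Col1a1 and Pdgfra of the fibroblast markers, and Mbp of the oligodendrocyte and Schwann cell markers, had a call in 3 libraries.

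CTCF was called in all 4 libraries at the starts of 17 of the 57 members, 4 of 14 in the alpha cluster, 11 of 22 in the beta cluster and 2 of 21 in the gamma cluster. Over the 17549 protein-coding genes of known direction the share was 20.7%. At 13 members no library had CTCF, 11 of them in the gamma cluster, against 63.1% of all genes. RAD21 was called in all 4 libraries at 15 starts, against 8.67% of all genes, and in none at 35, against 68.3%. These 15 were all among the 17 CTCF starts, and the remaining pair was Pcdhb3, with RAD21 in 3 libraries, and Pcdhb4, with RAD21 in 2. Over all genes, 39.5% of the starts with CTCF in all 4 libraries also had RAD21 in all 4.

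H3K9ac, a mark of active promoters, was called in all 4 libraries at 12 members: Pcdha1, Pcdha8, Pcdha9, Pcdhac1 and Pcdhac2 in the alpha cluster, Pcdhb2, Pcdhb5, Pcdhb6, Pcdhb10 and Pcdhb11 in the beta cluster, and Pcdhgb1 and Pcdhgc3 in the gamma cluster. The share over all genes was 49.9%. At 41 members no library had an H3K9ac call, 19 of them in the gamma cluster, against 44.8% of all genes. Of the 12 acetylated starts, 11 carried both CTCF and RAD21 in all 4 libraries, where 14.0% of the acetylated starts of all genes carried both and 36.4% carried CTCF. The exception was Pcdhac2, with no CTCF call in any library and RAD21 in 1.

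The reverse did not hold at every member. Of the 15 starts with CTCF and RAD21 in all 4 libraries, 11 had H3K9ac in all 4, and Pcdhb9, Pcdhb19, Pcdhb20 and Pcdhb21 did not. Over all genes this share was 85.7%. H3K9ac at Pcdhb9 was called in 3 libraries, at Pcdhb19 in 1, and at Pcdhb20 and Pcdhb21 in none. Among the 13 members with no CTCF call in any library, Pcdhac2 was the 1 with H3K9ac in all 4, where 30.6% of all genes without CTCF had it.

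The starts with all 3 marks were spread along the clusters and not in 1 block. Pcdha1, the first alpha gene, was separated from Pcdha8 and its neighbour Pcdha9 by 6 genes with no H3K9ac call in any library. In the gamma cluster, Pcdhgb1 and Pcdhgc3 were the only protein-coding members with CTCF, RAD21 or H3K9ac in all 4 libraries. The first and last genes of the clusters differed: Pcdhga1 and Pcdhgc5 had no call of any antibody in any library, Pcdhb22 had CTCF in 2 libraries and RAD21 in 1, and Pcdhb1 had CTCF in 1 and H3K9ac in 1.

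**Figure D1:**
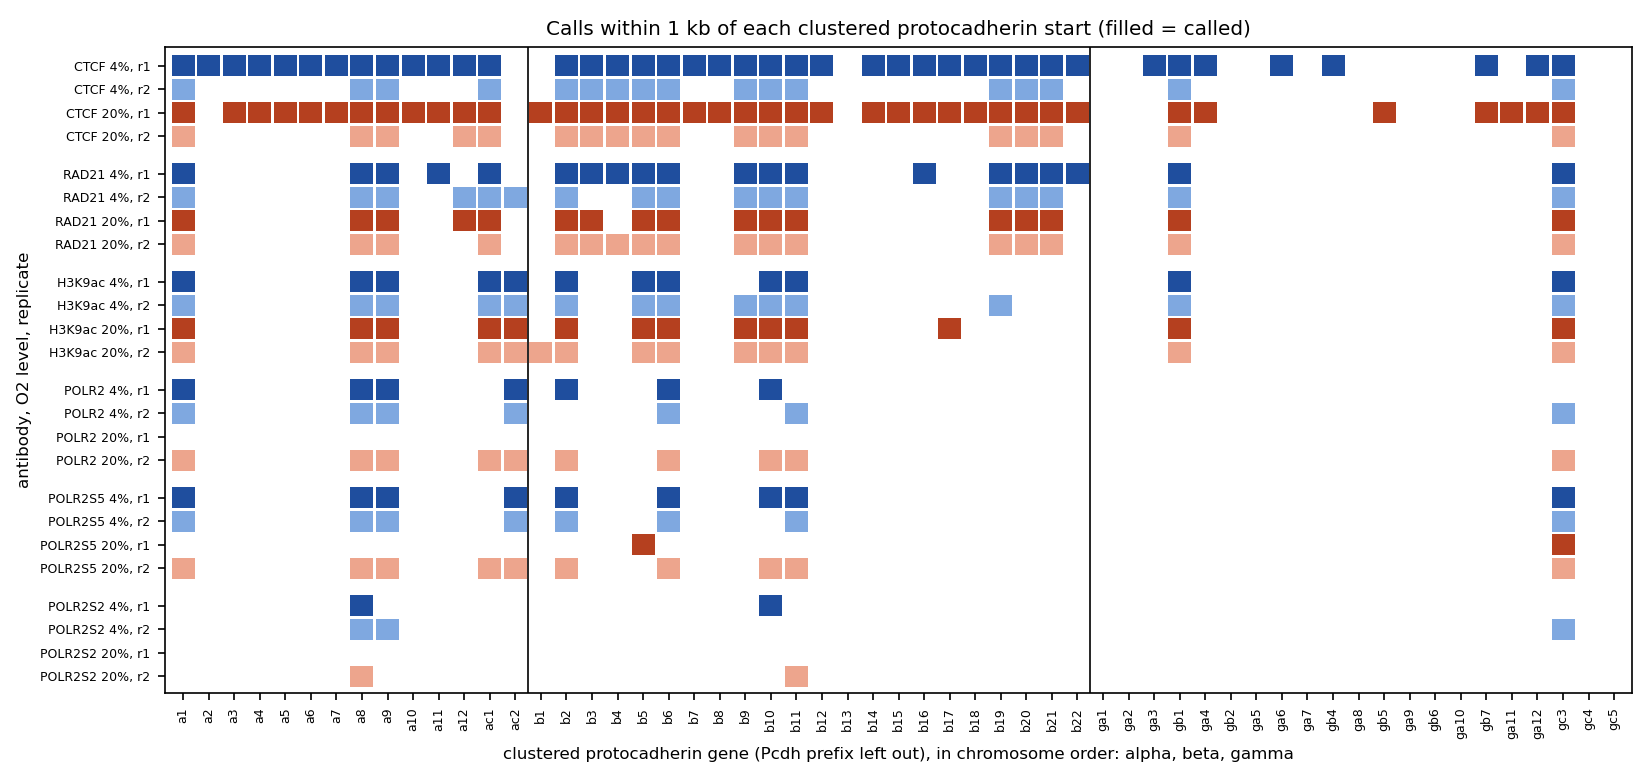
Calls at the 57 clustered protocadherin starts. Columns are genes in chromosome order with black lines between the alpha, beta and gamma clusters, rows are the 24 libraries (r, replicate), blue is 4% O2, red is 20% O2 and the lighter shade is replicate 2. CTCF fills most alpha and beta columns in replicate 1 and fewer in replicate 2, while H3K9ac and polymerase share a few columns. At 20% O2 polymerase rests on replicate 2, since replicate 1 has POLR2 and POLR2S2 at 0 members and POLR2S5 at 2.

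The C-type genes and the members known to lack the conserved element went separate ways. Pcdhac1 and Pcdhgc3 had CTCF, RAD21 and H3K9ac in all 4 libraries. Pcdhac2, the last alpha start at 37143678, had no CTCF call but lay in the widest acetylated region of any member, 9497 bp from 37140788 to 37150284, of which 9084 and 9327 bp were called at 4% O2 and 7985 and 8882 bp at 20% O2. Pcdhgc4 and Pcdhgc5 had no call of any antibody. Of the 4 members known to lack the element, none had CTCF in all 4 libraries, 3 had it in none, and Pcdhb1 had it in 20% O2 replicate 1. With 63.1% of all genes in none and 20.7% in all 4, counts of 3 and 0 among 4 genes are near the shares of all genes.

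CTCF calls at the members differed more between the rounds than between the O2 levels. The rounds differ in flow cell and in the length of the CTCF lists, and the part of each in this difference was not tested. The lists of 4% O2 held CTCF at 41 members in round 1 and 17 in round 2, and those of 20% O2 at 40 and 18. Both round 1 libraries had CTCF at 37 members, against 26.2% of all genes. At 19 members CTCF was called in both round 1 libraries and neither round 2 library, against 2.94% of all genes. The reverse pattern was seen at 0 members, against 0.781%. The 19 were Pcdha3 to Pcdha7, Pcdha10 and Pcdha11, 9 beta genes from Pcdhb7 to Pcdhb22, and Pcdhga4, Pcdhgb7 and Pcdhga12.

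The round 1 peaks at these 19 starts were narrower and lower by median than those at the 17 starts called in all 4 libraries, with overlapping ranges. Their widths had a median of 106 bp at 4% O2 (76 to 340) and 133 bp at 20% O2 (75 to 370). At the 17 starts the highest-scoring round 1 peak had a median width of 476 bp (118 to 1386) and 467 bp (169 to 1475). The median deposited score, −log10 of a q-value, was 29.2 at both O2 levels for the 19 starts and 361 and 285 for the 17. Scores ran from 10.4 to 118 against 51.8 to 654 at 4% O2. At 20% O2 they ran from 5.15 to 121 against 12.4 to 530. H3K9ac was called at 1 of the 19, Pcdhb17, in 1 library.

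The same counts were made for the other antibodies. For RAD21, H3K9ac, POLR2S5 and POLR2S2, 0 members had a call in both libraries of 1 round and neither of the other. Over all genes the share called in round 1 alone was 0.0228%, 0.188%, 0.239% and 0.199% in that order, and in round 2 alone 6.46%, 1.62%, 1.87% and 4.07%. POLR2 was called in round 2 alone at 2 members, Pcdhb11 and Pcdhgc3, against 2.67% of all genes, and in round 1 alone at 0, against 0.12%. For POLR2 and POLR2S2 a call in round 1 alone was not possible, since 20% O2 replicate 1 had none at the members.

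Peak centres in the round 1 lists lay in distinct places. A CTCF peak centred within 250 bp of the start was present in both round 1 libraries at 30 members, 7 alpha, 19 beta and 4 gamma, against 10.2% of all genes. A peak centred 400 to 700 bp after the start was present at 7 members, against 2.93%, of which 5 were alpha genes: Pcdha4, Pcdha6, Pcdha7, Pcdha10 and Pcdha12. The others, Pcdhb3 and Pcdhb6, had there small peaks scored 3.07 to 5.27, beside peaks of 417 to 530 at the start. At Pcdha8 and Pcdha9 wide peaks were centred within 250 bp of the start. The highest points of their strongest round 2 peaks lay 431 to 554 bp after it, so centres can miss such sites. Alpha exons other than those of the C type are known to hold a CTCF site of their own besides that in the promoter. At Pcdha4 the peak was centred 533 bp after the start at 4% O2 and 591 bp at 20% O2, at Pcdha6 583 and 620 bp, and at Pcdha7 572 and 590 bp. Pcdha12 had both kinds, centred −170 and 453 bp from the start in 4% O2, and −157 and 551 bp in 20% O2.

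A further group was centred 2000 to 2600 bp after the start, at Pcdha8, Pcdhb3, Pcdhb10, Pcdhb14, Pcdhb20, Pcdhga8 and Pcdhgc3, against 4.18% of all genes. Pcdhga8 had no other CTCF peak near its start. Of these peaks, that of Pcdhb10, in the region from 37413654 to 37414686, was called in all 4 libraries. The 3 distance ranges were set after the peaks had been seen, and the 2 libraries behind them share a flow cell.

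**Figure D2:**
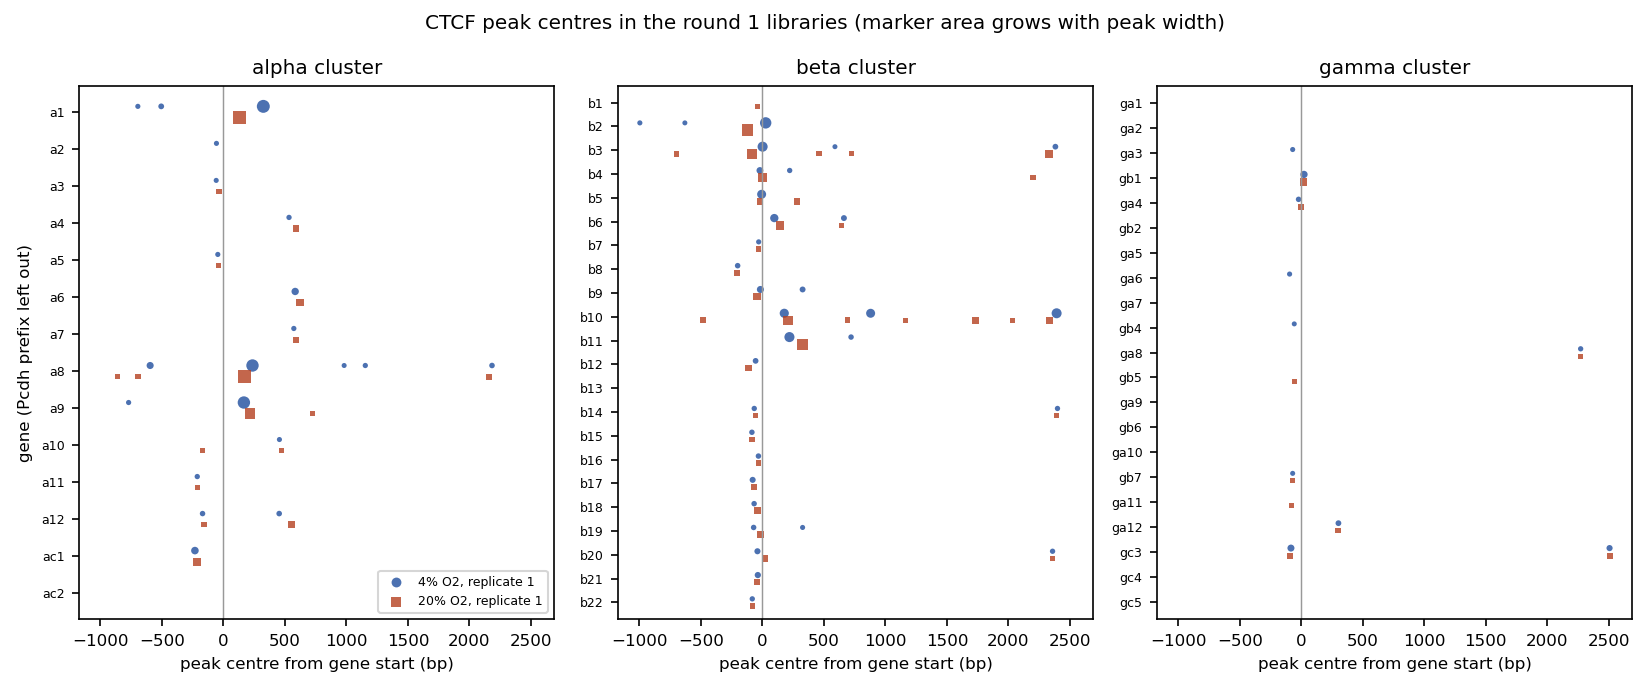
Centres of CTCF peaks from 1 kb before to 3 kb after each start in the round 1 libraries, in bp along the direction of the cluster. Each row is a gene, circles are 4% O2, squares are 20% O2, and larger markers are wider peaks. Most beta genes have a peak within 250 bp of the start, several alpha peaks lie 400 to 700 bp after it, and a further group lies 2000 to 2600 bp after it.

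Summits, the highest points of peaks, were deposited for the round 2 lists. The strongest CTCF summit at a member start lay at a median of −53 bp at 4% O2 (17 members, −214 to 529) and −45 bp at 20% O2 (18 members, −173 to 554), just before the annotated start. RAD21 summits lay at −38 bp and −41 bp (17 members each). RAD21 summits lay a median of 7 bp after the CTCF summit at both O2 levels, over 15 members at 4% O2 (−620 to 60) and 17 at 20% O2 (−672 to 64). At Pcdha8 and Pcdha9 the pair lay apart, with the strongest CTCF summit at 431 to 554 bp and that of RAD21 at −152 to −41 bp. H3K9ac summits lay after the start at 14 of 14 members at 4% O2 (median 235 bp, 78 to 1295) and at 12 of 14 at 20% O2 (median 198 bp, −651 to 552), the exceptions being Pcdhac1 and Pcdhgc3. Their medians were 258 bp and 176.5 bp from the CTCF summit. These are medians over members within single libraries and not over replicates.

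The strength of the shared sites was read as the percentile of the deposited score among all regions called in all 4 libraries of an antibody, where 100 is the strongest. Mean percentiles over the 4 libraries ran from 26.4 to 82.6 for CTCF at 17 members, with a median of 52.4, and from 12.7 to 70.1 for RAD21 at 15, with a median of 33.2. H3K9ac was spread more widely, from 9.6 to 96.7 over 12 members, with a median of 74.4.

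Pcdha8 and Pcdha9 had the highest mean H3K9ac percentiles. Pcdha8 stood at 97.7 and 96.6 in 4% O2, against 96.0 and 96.6 in 20% O2. Pcdha9 stood at 91.9 and 95.9 against 92.3 and 96.6. For both genes the O2 levels overlapped.

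In the beta cluster the strongest were Pcdhb6, at 95.8 and 85.3 at 4% O2 and 91.7 and 90.3 at 20% O2, and Pcdhb11, at 98.5 and 86.8 against 97.5 and 71.0. The lowest-ranked regions at acetylated starts were in the gamma cluster and at Pcdhac1. Pcdhgc3 stood at 2.1 and 8.1 in 4% O2, against 15.6 and 12.6 in 20% O2, while Pcdhgb1 stood at 19.6 and 4.4 against 26.3 and 23.4. Pcdhac1 stood at 5.8 and 3.3 against 23.4 and 16.5.

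All 3 of these regions were lower in both 4% O2 libraries than in both 20% O2 libraries. Those of Pcdha1, at 56.7 and 78.0 against 89.1 and 79.4, and Pcdhb10, at 58.1 and 45.2 against 85.8 and 63.8, were too. The ranked regions of Pcdhac1 and Pcdhgc3 lay before the start, centred at −655 and −447 bp. In 4% O2 replicate 2 the strongest H3K9ac summits of these 2 genes lay outside them, 105 and 166 bp after the start. In 20% O2 replicate 2 the summits lay inside them, at −651 and −509 bp. Pcdhac2 was the 1 member higher in both 4% O2 libraries, at 94.0 and 81.7 against 63.6 and 81.5, with nearly equal values in round 2. The remaining 6 members overlapped.

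So H3K9ac was lower without overlap at 5 of the 12 members and higher at 1, against 13.0% and 13.8% of all shared H3K9ac regions. For Pcdhac1 and Pcdhgc3, among the 5, this was a region before the start. The median difference, 4% minus 20% O2, was −7.0 percentile points over the members and 0.1 over all regions. Within rounds it was −3.6 and −3.0. It was −0.6 without 4% O2 replicate 2, −3.7 without 20% O2 replicate 1 and −12.4 without 20% O2 replicate 2. With 2 libraries against 2 the smallest two-sided exact permutation p is 0.333, so no single member can pass a threshold of 0.05.

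For CTCF, 4 of 17 members were lower at 4% O2 without overlap (Pcdha9, Pcdhb11, Pcdhb19 and Pcdhb20) and none was higher, against 9.75% and 10% of all shared regions. The differences of the members ran from −14.6 to 9.1 percentile points with a median of −1.0. That median was 4.2 within round 1 and −3.3 within round 2, so the rounds differed in sign. It was −7.7 without 4% O2 replicate 1 and −6.2 without 20% O2 replicate 2, but 9.9 without 4% O2 replicate 2 and 7.8 without 20% O2 replicate 1. For RAD21, 3 of 15 members were higher at 4% O2 (Pcdha8, Pcdhb6 and Pcdhb11) and none was lower, against 16.3% and 17.7%. The RAD21 median was 4.5, with 7.7 in round 1 and 1.2 in round 2. It was −1.7 without 4% O2 replicate 1, 11.7 without 4% O2 replicate 2, 1.8 without 20% O2 replicate 2, and −2.2 when regions were ranked among those at gene starts alone.

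**Figure D3:**
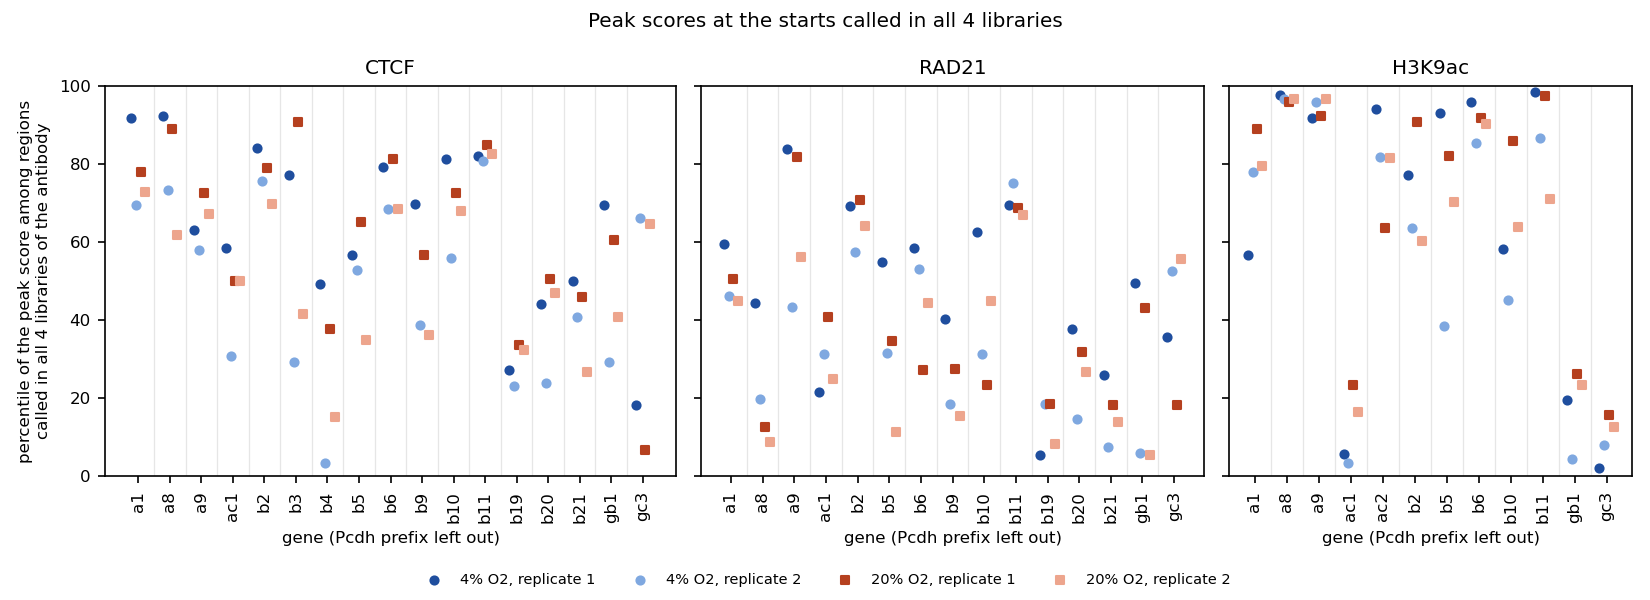
Percentile of the peak score in each library at the members called in all 4 libraries of CTCF (17 genes), RAD21 (15) and H3K9ac (12), where 100 is the strongest of all shared regions. Blue circles are 4% O2, red squares are 20% O2 and lighter markers are replicate 2. Pcdha8 and Pcdha9 sit above 90 for H3K9ac in every library, and Pcdhac1, Pcdhgb1 and Pcdhgc3 below 30.

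No member start had a call that was specific to an O2 level, that is, present in both libraries of one level and neither of the other. This count was 0 for all 6 antibodies in both directions. For POLR2 and POLR2S2 the 20% O2 replicate 1 library had no call at any member, so that no call specific to 20% O2 was possible, and for POLR2S5 it had 2. Over all genes the share specific to 4% O2 was 1.17% for CTCF, 0.456% for RAD21, 0.0684% for H3K9ac, 0.331% for POLR2, 0.154% for POLR2S5 and 2.78% for POLR2S2. The share specific to 20% O2 was 0.057%, 0.0969%, 0.103%, 0.103%, 0.194% and 0.12% in the same order. A count of 0 among 57 genes is close to these shares. With 20% O2 replicate 2 left out, so that replicate 1 alone stood for 20% O2, 5 members had POLR2 and 7 had POLR2S5 at 4% O2 alone, and 3 had CTCF at 20% O2 alone. With 4% O2 replicate 2 left out, 4 members had CTCF and 3 had RAD21 at 4% O2 alone.

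Polymerase was called at few starts, all of them among the 12 with H3K9ac in all 4 libraries. No member had a POLR2 island in all 4 libraries, against 34.7% of all genes. POLR2S5, the form found near promoters, was called in all 4 libraries at Pcdhgc3 alone, against 42.8%. POLR2S2, the form of elongating polymerase, was called in all 4 at no member, against 21.0%. These counts rest on the library of 20% O2 replicate 1, which had POLR2 at 0 members and POLR2S5 at 2.

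In the 3 other libraries POLR2 was called at 5 members, Pcdha1, Pcdha8, Pcdha9, Pcdhac2 and Pcdhb6, against 49.6% of all genes. POLR2S5 was called there at 8, the same 5 with Pcdhb2, Pcdhb11 and Pcdhgc3, against 51.4%. POLR2S2 was called at Pcdha8, against 39.4%. POLR2 was called in no library at 47 members, against 43.6% of all genes, POLR2S5 at 46, against 42.5%, and POLR2S2 at 52, against 46.4%.

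All 8 starts with POLR2S5 in both round 2 libraries were among the 12 acetylated ones. Pcdhac1, Pcdhb5, Pcdhb10 and Pcdhgb1 were acetylated without it. The share among acetylated starts of all genes was 97.8%, and 80.1% with POLR2S5 in all 4 libraries. For POLR2S2 in both round 2 libraries it was Pcdha8 alone of the 12, against 80.7%.

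Reads in the islands give the amounts, in reads as deposited and not scaled to library size. Pcdhac2 had the most: its POLR2 island held 481 and 390 reads at 4% O2 and 357 at 20% O2 replicate 2, with no island in 20% O2 replicate 1. Its POLR2S5 island held 683 and 329 reads against 347 and none. The islands were long, 15.2, 9.0 and 7.4 kb for POLR2, like the acetylated region there.

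Pcdha8 followed, with POLR2S5 at 150 and 243 reads at 4% O2 and 196 at 20% O2 replicate 2, and POLR2S2 at 72 and 116 against 61. In 4% O2 replicate 2 the POLR2S5 island of 6.8 kb covered both Pcdha8 and Pcdha9, so the 243 reads belong to both. Pcdhb11, with the most POLR2S5 reads of the beta starts, had 125 and 100 reads against 131 in replicate 2 of 20% O2. Pcdha1, at 56 and 38 against 67, and Pcdhb6, at 60 and 52 against 69, had fewer. The POLR2S5 reads of the single 20% O2 library with an island lay above both 4% O2 libraries at Pcdha1, Pcdhb2, Pcdhb6 and Pcdhb11. At Pcdhac2 those reads lay between the 4% O2 libraries. For Pcdha8 and Pcdha9 the shared island of 4% O2 replicate 2 gives no order. Against 4% O2 replicate 1 alone, 20% O2 replicate 2 held 196 reads to 150 at Pcdha8 and 118 to 78 at Pcdha9. With 1 such library these differences have no replicate check.

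**Figure D4:**
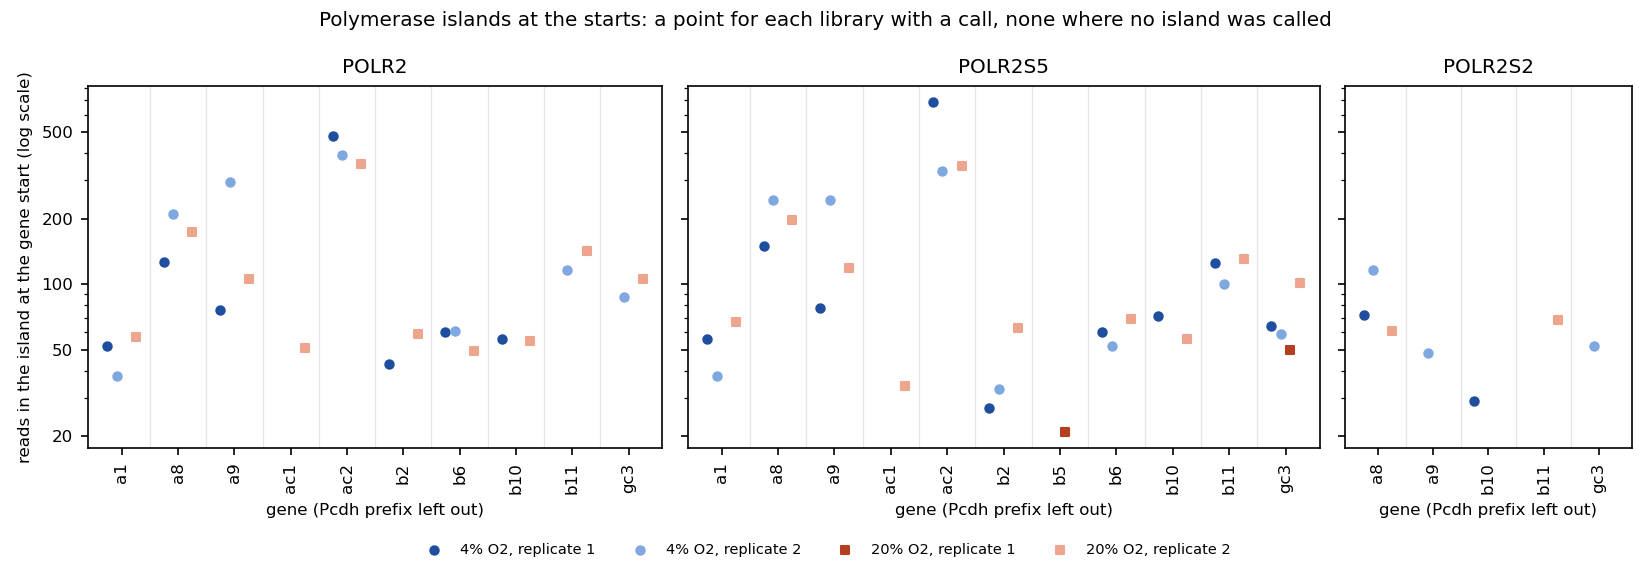
Reads in the island at each member start with a call in at least 1 library, on a log scale, for POLR2, POLR2S5 and POLR2S2. Blue circles are 4% O2, red squares are 20% O2, lighter markers are replicate 2, and a missing marker means that no island was called. Pcdhac2 holds the most reads for POLR2 and POLR2S5, and the dark red squares of 20% O2 replicate 1 are present at Pcdhb5 and Pcdhgc3 alone.

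Regions with an island in all 4 libraries could be compared between O2 levels with edgeR's quasi-likelihood test over 7811 POLR2, 9933 POLR2S5 and 5936 POLR2S2 regions. The clusters held 0, 1 and 1 of them. At Pcdhgc3, a C-type gene, the POLR2S5 region from 37805201 to 37808400 held 64 and 59 reads at 4% O2 and 50 and 101 at 20% O2. The log2 ratio of 4% to 20% O2 was −0.59 ± 0.41 (SE, adjusted p = 0.999 by edgeR with Benjamini-Hochberg adjustment). At the shared gamma end the POLR2S2 region from 37838001 to 37847600, which also covers an end of the neighbour Diaph1, held 81 and 51 against 27 and 184 reads, a log2 ratio of −1.20 ± 0.79 (SE, edgeR adjusted p = 0.809). Without 20% O2 replicate 2 that ratio was 0.02, without 20% O2 replicate 1 it was −1.83, and without the 4% O2 replicates −1.98 and −0.69.

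Neither region passed. Over all regions edgeR called 0.0% higher and 0.0% lower for each form. An unadjusted p under 0.05 was reached by 172 POLR2, 288 POLR2S5 and 349 POLR2S2 regions, and DESeq2 called 1 higher and 0 lower for POLR2, 7 and 12 for POLR2S5 and 32 and 21 for POLR2S2. With the round as a block edgeR called 1 higher and 1 lower for POLR2, 0 and 3 for POLR2S5 and 5 and 6 for POLR2S2. Without 20% O2 replicate 2 edgeR called 178 POLR2 regions higher and 17 lower and 45 and 5 of POLR2S5, none of them in the clusters. In counts simulated for these comparisons, the test found 85% of planted POLR2 changes of 2 log2 units, 29% of those for POLR2S5 and 18% for POLR2S2, and of changes of 1 log2 unit 9%, 2% and 0%, with 100 regions planted at each size. In the same simulations 23, 3 and 2 unchanged regions were called.

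The share of the clusters covered by islands was read without a genome-wide share beside it. It therefore does not show whether the clusters were poor in islands. POLR2 islands covered 5.22% and 5.22% of the 3 clusters at 4% O2 and 0.0% and 5.07% at 20% O2, and POLR2S5 islands 7.04% and 5.08% against 0.777% and 5.77%. POLR2S2 covered 1.03% and 1.31% against 0.834% and 2.47%. The lone low value of POLR2 and of POLR2S5 was that of 20% O2 replicate 1. Without it the difference between O2 levels was 0.16 percentage points for POLR2 and 0.29 for POLR2S5, where it was 2.69 and 2.79 with it. Without 20% O2 replicate 2 it was 5.22 and 5.28. The exact permutation p was 0.333, 0.667 and 1.0 for the 3 forms (two-sided, n = 2 against 2).

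The shared ends and the stretches between clusters held further sites. At the alpha end no CTCF, RAD21 or H3K9ac peak was called in any library, but H3K9ac covered a stretch before it, from 37175491 to 37181371, in all 4 libraries. The gamma end had CTCF in 4 of 4 libraries, from 37841217 to 37841676, at percentiles of 38.1 and 9.3 at 4% O2 and 34.8 and 11.5 at 20% O2. RAD21, H3K9ac and POLR2 were called there in 0 of 4. POLR2S2 was called at the gamma end in 4 of 4 libraries, and POLR2S5 in both 20% O2 libraries and neither 4% O2 library. At gene starts, 0.194% of all genes had such a POLR2S5 pattern. The POLR2S5 islands at the gamma end held 39 reads in 20% O2 replicate 1 and 70 in replicate 2. In 4% O2 replicate 1 POLR2S5 islands lay on either side, from 37835001 to 37836800 and from 37848001 to 37858000. At the alpha end POLR2 and POLR2S5 were called in 1 library each, 20% O2 replicate 2, and POLR2S2 in 2, 4% O2 replicate 1 and 20% O2 replicate 2.

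Between the alpha and beta clusters lay 1 region of CTCF, from 37217179 to 37219298, centred 29.3 kb after the alpha end. Its CTCF percentile was 72.2 and 80.1 at 4% O2 and 76.8 and 89.8 at 20% O2. RAD21 there, from 37216525 to 37219084, stood at 89.3 and 74.5 against 85.6 and 86.8. A pair of H3K9ac regions overlapped it in all 4 libraries. The O2 levels overlapped for both proteins, and RAD21 was stronger here than at any member start by mean percentile. Enhancers of the alpha cluster are known to lie downstream of it, but no file here places them, so the site is given by position alone.

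Before the gamma cluster, centred at −6.23 kb from the start of Pcdhga1, CTCF was called in all 4 libraries from 37654911 to 37656179, at 90.0 and 74.6 against 84.5 and 68.5. RAD21, H3K9ac, POLR2 and POLR2S5 were called there in all 4 libraries as well. This site was chosen after its values were seen. Its POLR2 region held 43 and 70 reads at 4% O2 and 46 and 91 at 20% O2 (log2 ratio −0.89 ± 0.40, SE, edgeR adjusted p = 0.992, or 0.322 with the round as a block).

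Inside the gamma cluster the start of Pcdhgb8, which the table lists as a transcribed pseudogene at 37761801 and so not as a member, had CTCF, RAD21 and H3K9ac in all 4 libraries. Its CTCF region stood at 83.8 and 83.4 against 75.1 and 81.4, above every gamma member by mean percentile, and its RAD21 region at 73.7 and 73.9 against 73.8 and 64.9. POLR2S5 was called there in both 4% O2 libraries and in neither 20% O2 library, as at the starts of 0.154% of all genes. Of the 20% O2 libraries, replicate 1 had POLR2S5 at 2 members alone. POLR2 was called at Pcdhgb8 in 4% O2 replicate 1 alone. This start too was named after its values were seen.

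Past the gamma end, 7 CTCF, 6 RAD21 and 8 H3K9ac regions within 100 kb were called in all 4 libraries, in and around Diaph1, which encodes a formin that nucleates actin, and Hdac3, a histone deacetylase. The strongest CTCF region, from 37882634 to 37884880 and centred 41.9 kb past the end, stood at 98.1 and 90.4 at 4% O2 and 98.6 and 91.5 at 20% O2. Next were the region from 37935346 to 37936443, at 96.4 and 96.6 against 92.5 and 90.2, and that from 37851840 to 37853034, centred 10.6 kb past the end, at 94.5 and 90.8 against 92.0 and 94.1. The strongest RAD21 region, from 37907857 to 37908804, stood at 91.6 and 75.4 against 68.1 and 64.9, higher in both 4% O2 libraries, as were 16.3% of all shared RAD21 regions. Centred 39.0 kb past the end, CTCF stood at 77.8 and 86.6 against 74.1 and 86.9, and 35.7 kb past it at 69.9 and 77.0 against 80.5 and 81.9, lower in both 4% O2 libraries, as were 9.75% of all shared CTCF regions. RAD21 stood at 82.7 and 66.5 against 63.6 and 76.9 there. With the CTCF region 66.4 kb past the end, at 66.7 and 76.7 against 73.4 and 73.3, these regions and the pair between the alpha and beta clusters were the 10 strongest of CTCF or RAD21 from the last alpha to the first beta start and past the last gamma start.

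**Figure D5:**
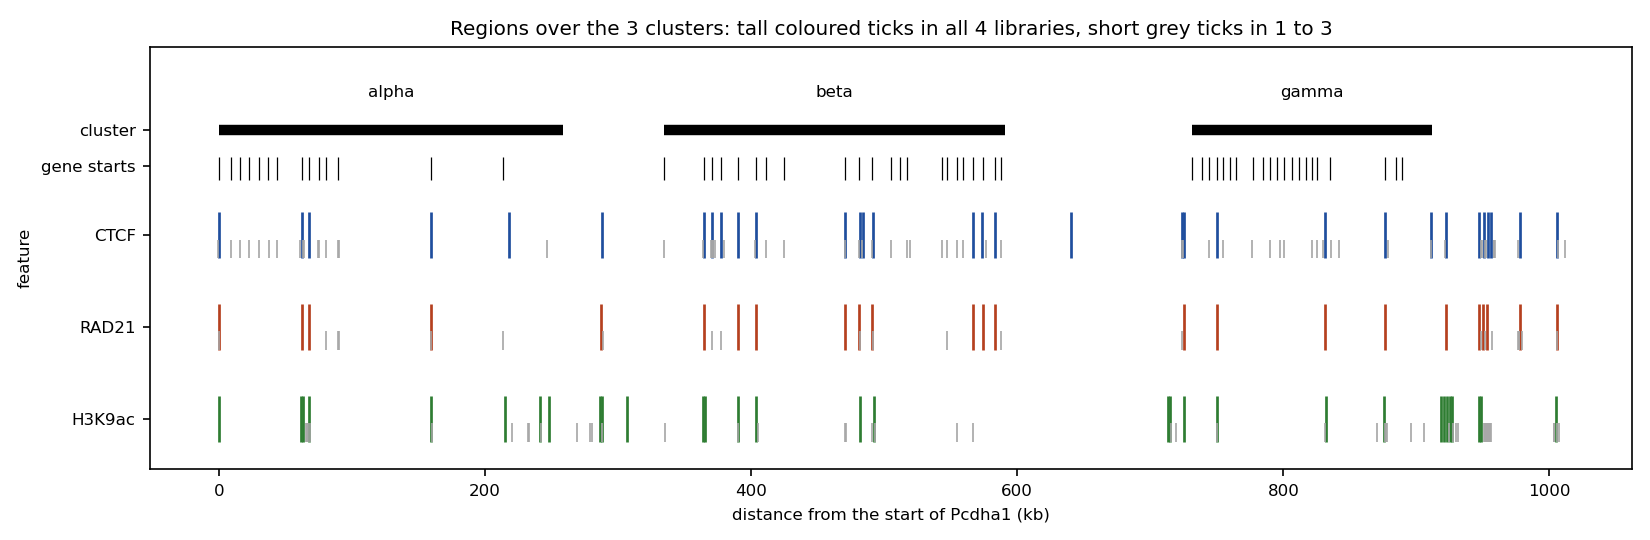
Regions of CTCF, RAD21 and H3K9ac along the 3 clusters, in kb from the start of Pcdha1. Black bars are the clusters, black ticks the 57 gene starts, tall coloured ticks regions called in all 4 libraries, and short grey ticks regions called in 1 to 3 libraries. Shared CTCF and RAD21 regions coincide at single starts, between the clusters and in a dense group past the gamma end.

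The genes around and behind the clusters gave a comparison. Of 12 protocadherins outside the clusters, 2 had H3K9ac in all 4 libraries, Pcdh1 and Pcdh17. The share over all genes of known direction, read at 1 start, was 49.9%. List genes of no known direction were read at either end, so the list counts are not matched to that share. These were 3 of the 12 protocadherins, 3 of 13 loop factors, 2 of 11 silencing factors, 8 of 19 partners and 15 of 15 neighbours. Among markers they were 3 of 14 neuroblast and sympathetic, 1 of 4 astrocyte and 4 of 4 oligodendrocyte and Schwann cell genes. They were also 2 of 4 endothelial, 1 of 4 macrophage and microglia and 2 of 4 fibroblast markers. Polymerase regions at the lists were tested with the same edgeR fits, and none of any list passed for any form. For Pcdh17 the POLR2 region held 266 and 384 reads at 4% O2 and 154 and 277 at 20% O2, a log2 ratio of −0.04 ± 0.34 (SE, edgeR adjusted p = 0.998). Pcdh1 and Pcdh12 share 1 long region, with a mean log2 ratio of 0.64 over the 3 forms.

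Genes for CTCF, cohesin and other loop factors had H3K9ac in all 4 libraries at 10 of 13, against 49.9% of all genes. For these factors 10 regions had POLR2S5 counts, 3 above and 7 below 0, with a median log2 ratio of −0.08 where all regions had −0.01. Wapl, which releases cohesin from chromatin, had the highest mean log2 ratio over the forms tested, 0.63, and Stag2, a cohesin subunit, the lowest, −0.38. Of the silencing and DNA methylation factors, 8 of 11 had H3K9ac in all 4 libraries, against the same 49.9%. Their median POLR2S5 log2 ratio over 9 regions was −0.07. Among them Dnmt3a, a DNA methyltransferase, had the highest mean, 0.89 from 1 form, and Dnmt3b the lowest, −0.18.

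Partners, effectors and related large cadherins had H3K9ac in all 4 libraries at 12 of 19, against 49.9% of all genes. Their median POLR2S5 log2 ratio was −0.04 over 11 regions. Their highest mean was 0.40, for Axin1, a scaffold of Wnt signalling. The lowest was −0.43, for Cyfip1, a subunit of the WAVE complex to which protocadherins bind. Cyfip1 was read at either end, and its POLR2S2 region, at −0.88, lay apart from its POLR2 and POLR2S5 regions, at −0.29 and −0.11. The 14 neuroblast and sympathetic genes had a median POLR2S5 log2 ratio of −0.04 over 10 regions. They ran from −1.63 for Stmn2, which binds tubulin, to 0.52 for Th, the rate-limiting enzyme of catecholamine synthesis. Stmn2 was read at either end, and its POLR2S2 region, which did not overlap that of POLR2S5, had a log2 ratio of 0.38. As means over the forms tested, Hand2, a transcription factor of sympathetic neurons, was lowest at −0.93 and Th highest at 0.55. Of 15 neighbouring gene models, all read at either end, 10 had H3K9ac in all 4 libraries, against 49.9% of all genes read at 1 start. Of the 15, 12 fell on 4 POLR2S5 regions with a median of 0.36. Among the neighbours, Taf7, a subunit of the general factor TFIID that lies between the beta and gamma clusters, had a mean log2 ratio of −0.05, and Diaph1 and Hdac3 had 0.71 from shared regions.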

How the data were processed

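Groups and replicates came from the labels. Reads had been processed with BWA, Picard, SICER and, for some samples, MACS2 on mm10, per the submitters' processing notes, which name no version or setting. Peaks of CTCF, RAD21 and H3K9ac came from MACS2 and polymerase islands from SICER, per the file headers. Judged from the values, the deposited MACS2 score is −log10 of a q-value and column 4 of the deposited SICER lists is a read count per island. These are the authors' values. Sequencing depth was not given here. Where a second deposited list with replicate 1 equalled that of replicate 2 (12 of 12 cases) it was used as replicate 2. Nothing says that replicates were separate cultures, so p-values measure the spread between libraries, which may be technical. For CTCF at 20% O2, the replicate 1 header holds a code that the labels do not explain.

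Members, lists and distance rules were chosen with earlier results of these data known. Gene positions came from RefSeq on GRCm38.p6, which is mm10. It gives no strand on chromosome 18, so the direction of alpha and gamma members came from their shared ends and that of beta members from general knowledge. Genes of no known direction were read at either end. Where several tested polymerase regions met a list gene, that with the most reads in 4% O2 replicate 1 was used. Peaks of 4 libraries were merged where they overlapped by 1 bp. Scores of regions called in all 4 were ranked within each library. Island reads were summed per region and tested with edgeR 4.0.16 (quasi-likelihood, TMM, at least 10 reads in 2 libraries, adjusted p below 0.05), with DESeq2 1.42.0 as an alternative. The tests were tried on simulated data. Same-numbered libraries deviated together (correlation across regions 0.53 for POLR2, 0.55 for POLR2S5 and 0.39 for POLR2S2), and the numbers mark flow cells per the file headers.

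Named members were the C-type genes, Pcdhb1, those with H3K9ac or a polymerase form in all 4 libraries, those with O2-specific calls and the first and last of each cluster, with up to 4 genes of each other list by mean log2 ratio and the 10 strongest CTCF or RAD21 sites between the last alpha and first beta start or past the last gamma start. Lists were the non-clustered protocadherins, the CTCF, cohesin and loop factors, the silencing and DNA methylation factors, the partners, effectors and related large cadherins, the neighbouring genes, the members that lack the conserved element, and markers of neuroblasts and 5 other cell types. Alternatives were the window, the stringency and length of the lists, single libraries left out, rounds alone, other ranks and other count models.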

Additional observations from a re-analysis of the deposited data

How the results depend on the processing

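Members with a call in all 4 libraries were counted again with other windows, with peak centres, with the higher-scoring 50% of each list, with lists of equal length and without single libraries. With any single library left out CTCF was at 17 or 18 members and H3K9ac at 12 or 13, while RAD21, at 15 or 16, fell to 5 (Pcdha1, Pcdha9, Pcdhac1, Pcdhb2 and Pcdhb11) in the higher-scoring 50% of peaks, where POLR2S5 fell to 0. H3K9ac was at 11 members with the 0.5 kb window, which lost Pcdhac1. It was at 10 by peak centres and at 9 in the higher-scoring 50% of peaks. Without single libraries POLR2 ranged from 0 to 5, POLR2S5 from 1 to 8 and POLR2S2 from 0 to 1, the highest without 20% O2 replicate 1. In counts by round, added after the data had been seen, round 1 alone gave CTCF at 37 members, and round 2 alone gave POLR2 at 7, POLR2S5 at 8 and POLR2S2 at 1. O2-specific starts, 0 for each antibody, became 1 for H3K9ac at 20% O2 (Pcdhgb1) in the higher-scoring 50% of peaks, and 1 for POLR2S5 (Pcdhb6) and 1 for POLR2S2 (Pcdha8) at 4% O2 in lists of equal length. Without single libraries, which leaves 1 library to decide a level, 4% O2 ranged from 0 to 4 for CTCF, 0 to 3 for RAD21, 0 to 1 for H3K9ac, 0 to 5 for POLR2, 0 to 7 for POLR2S5 and 0 to 2 for POLR2S2, and 20% O2 from 0 to 3 for CTCF and 0 to 1 for each other antibody. The highest 4% O2 counts of POLR2 and POLR2S5 came without 20% O2 replicate 2.

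The count test called 0 cluster regions in each setting, with the replicate number as a block, with any single library left out (0 to 0), with DESeq2, without normalization factors or filter, and per kb of island, which moved the median log2 ratio of all regions to −0.48, −0.30 and −0.37. With the replicate block the log2 ratio at Pcdhgc3 was −0.60 ± 0.30 (SE, edgeR adjusted p = 0.425). The covered share, 4% minus 20% O2, ranged without single libraries from 0.16 to 5.22 for POLR2, 0.29 to 5.28 for POLR2S5 and −1.3 to 0.33 for POLR2S2, and that of POLR2S2 was 0.19 in the higher-scoring 50% of peaks against −0.48. The median percentile difference ranged from −7.7 to 9.9 for CTCF, −1.7 to 11.7 for RAD21 and −12.4 to −0.6 for H3K9ac without single libraries. With the rounds as a replicate block it was 4.2 for CTCF in round 1 and −3.6 and −3.0 for H3K9ac. Ranked among gene starts it was −2.2 for RAD21 and −5.6 for H3K9ac, and among all peaks of a list, added after the data had been seen, −2.9 for H3K9ac. The cause of these changes was not tested. With 2 libraries a level and unknown depth, a missing call does not show that a factor is absent.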
